A study of Mus musculus with 10 samples.

Results

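The nuclear genes that encode the mitochondrial respiratory chain and the ATP synthase were followed across 3 groups of mouse cell samples measured on Affymetrix arrays. The members were all genes whose single symbol on the platform begins with Nduf (followed by a, b, c, s or v), Uqcr, Cox4 to Cox8 or Atp5, or is Sdha, Sdhb, Sdhc, Sdhd, Cyc1, Cycs or Cyct. This name rule uses no measured value and gave 93 of the 18193 genes measured. Where a gene has several probe sets, that with the highest mean over the 10 arrays stands for it. The members comprise 34 subunits of complex I, 8 complex I assembly factors named Ndufaf, 4 subunits of complex II, 9 of complex III, 2 cytochrome c genes, 18 subunits of complex IV (Ndufa4 and Ndufa4l2 among them), Cox7a2l and 17 subunits of the ATP synthase.

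The sample titles give 3 groups. Brain NSC (4 arrays) are neural stem cells taken from the brain of adult Oct4-eGFP OG2 Rosa26 neo/lacZ mice crossed with ICR females. The iPS samples (3 arrays) are induced pluripotent stem cells that the labels describe as made from such NSC with a pMX retrovirus carrying the mouse Oct4 cDNA alone, picked by hand as Oct4-GFP-positive colonies and grown on irradiated mouse embryonic fibroblasts with LIF. The iPS-derived NSC samples (3 arrays) are NSC differentiated from 1-factor iPS cells. All groups carry the Oct4-eGFP and neo/lacZ transgenes. Whether replicates are separate cultures, clones or animals is not stated in the labels, so p values measure only the spread between these samples, which may be technical. Values are RMA levels on the log2 scale, and differences are log2 differences with the SE of limma.

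The markers go against 2 of the 3 labels. Pou5f1, the gene for Oct4, had a mean level of 4.55 ± 0.05 (SD, n = 4) in brain NSC, 4.66 ± 0.15 (n = 3) for the title iPS and 13.29 ± 0.25 (n = 3) for the title iPS-derived NSC. Fabp7, a marker of neural stem cells, had means of 14.45 ± 0.10, 14.17 ± 0.02 and 4.43 ± 0.21 in the same order. All 12 pluripotency markers listed were higher, and all 11 measured NSC markers lower, in the arrays titled iPS-derived NSC than in each other group. The labels are kept as deposited, and every direction given here reads against that measurement: the arrays titled iPS-derived NSC carry the pluripotency markers.

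The respiratory chain passes electrons from NADH at complex I and from succinate at complex II through ubiquinone to complex III, then by cytochrome c to complex IV, where oxygen is reduced. The protons pumped on the way drive the ATP synthase. Several complex IV subunits and cytochrome c exist as paired isoforms, one used widely and the other restricted to tissues such as muscle or testis. Pluripotent stem cells are known for relying strongly on glycolysis, while neural stem cells of the adult brain switch towards oxidative metabolism as they differentiate.

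The arrays titled iPS-derived NSC differed from both other groups in 2 opposite ways. Most subunits of complex I and of the ATP synthase were lower there by a modest amount, while 2 isoforms of restricted tissue use, Cox6b2 and Cox7a1, were higher by more than 4 on the log2 scale. Against the arrays titled iPS, 42 of 93 members (45.2%) were lower and 18 (19.4%) higher at an adjusted p under 0.05; over all genes tested, 26.6% were lower and 34.6% higher. Against brain NSC, 48 members (51.6%) were lower and 19 (20.4%) higher, beside 25.8% and 36.9% of all genes. Lower in both comparisons were 37 members, higher in both were 13, and 0 moved in opposite directions. The 2 comparisons share the arrays titled iPS-derived NSC, so these counts are not independent of each other. The same patterns were not counted over all genes, so no share stands beside them.

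The falls were small. The median difference of the members was -0.21 against the arrays titled iPS and -0.27 against brain NSC, beside 0.12 and 0.13 for all genes. Under quantile normalization the medians were -0.19 and -0.25 for the members and 0.028 and 0.038 for all genes, so the reference value depends on the scaling. Because 75 of the members have a mean of at least 10, they were also set beside the 2406 genes that bright. Of those bright genes 38.9% and 38.2% were lower in the 2 comparisons, against 53.3% and 61.3% of the 75 bright members. At 2-fold or more only 8 members were called against the arrays titled iPS (beside 25.3% of all genes) and 7 against brain NSC (beside 25.4%). The 5 that rose by at least 2-fold were the same in both comparisons: Cox6b2, Cox7a1, Cyct, Cox7c and Ndufaf3. Those that fell by as much were Ndufa12, Ndufa10 and Ndufs7 against the arrays titled iPS, and Ndufa12 and Sdhb against brain NSC. In bulk samples, fewer cells of a type and less RNA per cell cannot be told apart.

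**Figure D1:**
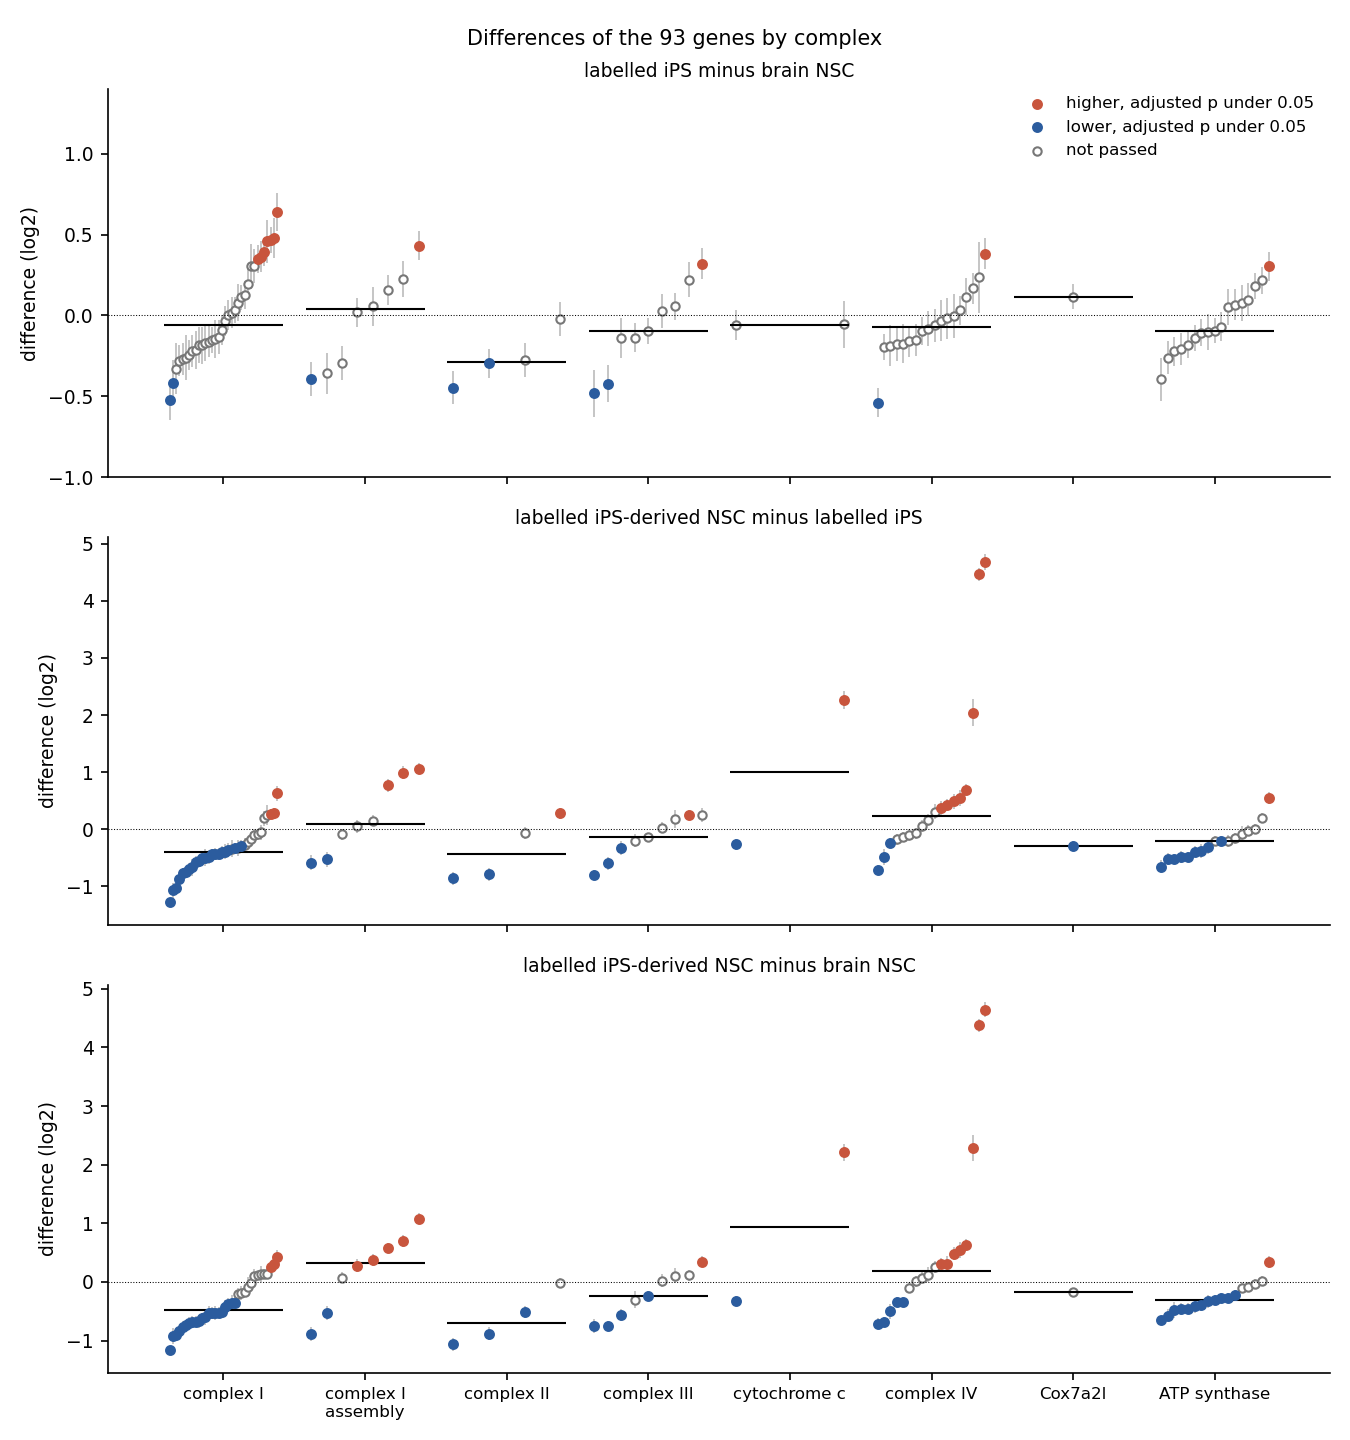
Log2 differences of the 93 genes by complex in the 3 comparisons, with the SE of limma as grey bars; black lines are the medians, and the vertical scale of the first panel is narrower than that of the others. In the lower 2 panels most complex I and ATP synthase genes lie below 0, while Cox6b2 and Cox7a1 stand above 4.

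Of the 34 subunits of complex I, 21 were lower and 3 higher against the arrays titled iPS, and again 21 lower and 3 higher against brain NSC, with medians of -0.40 and -0.47. Of all genes 26.6% and 25.8% were lower, and of those with a mean of at least 10, 38.9% and 38.2%. Both the catalytic core and the supernumerary subunits took part: 4 of 6 measured core subunits and 17 of 28 supernumerary subunits were lower in each comparison. Ndufa12, a supernumerary subunit of the NADH-oxidising arm, had levels of 12.65, 12.64, 12.64 and 12.61 in brain NSC, 12.76, 12.69 and 12.79 in the arrays titled iPS, and 11.39, 11.50 and 11.50 in those titled iPS-derived NSC. All 3 arrays titled iPS-derived NSC lay below the other 7, which were close together. The difference was -1.28 ± 0.08 (SE, adjusted p = 1.22e-08) against the arrays titled iPS and -1.17 ± 0.08 (SE, adjusted p = 1.41e-08) against brain NSC. Its 3 bright probe sets, all of kinds that can bind related transcripts, fell by 1.03 to 1.28 and by 1.13 to 1.19, whereas a dim probe set of Ndufa12 alone differed by -0.018 and -0.53. With that probe set in place of the bright ones the first difference did not pass (adjusted p = 0.93 in limma).

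Ndufs7, which carries the iron-sulfur cluster nearest to ubiquinone, had levels of 11.78, 11.56, 11.70 and 11.60 in brain NSC, 11.92, 11.71 and 11.94 in the arrays titled iPS, and 10.81, 10.82 and 10.85 in those titled iPS-derived NSC. Again the 3 lowest were those titled iPS-derived NSC. It fell by 1.03 ± 0.10 against the arrays titled iPS (adjusted p = 6.2e-07) and by 0.84 ± 0.09 against brain NSC (adjusted p = 2.44e-06), and a second probe set fell by 0.78 and 0.95.
Ndufc2, a membrane-arm subunit, fell by 0.87 ± 0.10 and 0.91 ± 0.09, with adjusted p values of 4.24e-06 and 1.32e-06. Ndufa8, of the same arm, was lower by a larger amount against brain NSC, -0.91 ± 0.14 (SE, adjusted p = 5.08e-05), than against the arrays titled iPS, -0.50 ± 0.15 (SE, adjusted p = 0.00952). That contrast between the 2 differences equals the difference between the arrays titled iPS and brain NSC, -0.42 ± 0.14 (SE, adjusted p = 0.0491).

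Ndufa10, a supernumerary subunit of the membrane arm, was ordered differently. Its levels were 11.27, 11.75, 11.33 and 11.48 in brain NSC, 11.95, 12.23 and 12.11 in the arrays titled iPS, and 11.05, 11.07 and 10.96 in those titled iPS-derived NSC. The arrays titled iPS were the highest, brain NSC intermediate and the arrays titled iPS-derived NSC the lowest, with no overlap between any of the groups. It fell by 1.07 ± 0.13 from the arrays titled iPS to those titled iPS-derived NSC (adjusted p = 4.98e-06), and was 0.64 ± 0.12 (SE, adjusted p = 0.00211) higher in the arrays titled iPS than in brain NSC. A dim second probe set differed by -0.12 and -0.38 in these comparisons, and with the mean of both probe sets the second difference was 0.13 and did not pass.

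The complex I subunits that rose were few and their rises small. Against the arrays titled iPS they were Ndufb4, Ndufa7 at 0.28 and Ndufs1 at 0.26; against brain NSC they were Ndufb10 at 0.42, Ndufa7 at 0.31 and Ndufv1 at 0.26. Ndufs1 and Ndufv1 encode core subunits of the NADH-oxidising arm. The value of Ndufb4, 0.63 ± 0.13 (SE, adjusted p = 0.000858), came from a dim probe set with levels between 3.71 and 4.63. The bright probe set annotated to Ndufb4 together with Ndufb4b and Ndufb4c, which the rule leaves out, went the other way: 11.66 ± 0.06 (SD, n = 4) in brain NSC, 11.77 ± 0.03 (n = 3) in the arrays titled iPS and 10.67 ± 0.05 (n = 3) in those titled iPS-derived NSC. The probe set shared by Ndufs6 and Ndufs6b stood at 10.82 ± 0.12, 10.93 ± 0.04 and 11.68 ± 0.08 in the same order, so it was highest in the arrays titled iPS-derived NSC. These shared probe sets were not tested.

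Of the 8 complex I assembly factors named Ndufaf, 3 were higher and 2 lower against the arrays titled iPS, and 5 were higher and 2 lower against brain NSC, with medians of 0.10 and 0.33. In the first comparison these shares are near those of all genes (34.6% higher and 26.6% lower), and the difference from the subunits was not tested. In the second, 36.9% of all genes were higher and 25.8% lower. Ndufaf3, which acts early in building the module that binds ubiquinone, had levels of 8.67, 8.94, 8.71 and 8.78 in brain NSC, 8.88, 8.75 and 8.76 in the arrays titled iPS, and 9.89, 9.81 and 9.87 in those titled iPS-derived NSC. Above all others were the arrays titled iPS-derived NSC, and the other groups overlapped. It rose by 1.06 ± 0.10 (SE, adjusted p = 3.84e-07) and 1.08 ± 0.09 (SE, adjusted p = 1.4e-07). Ndufaf7, a methyltransferase, rose by 0.99 ± 0.11 and 0.69 ± 0.10, and Ndufaf1 by 0.77 ± 0.11 and 0.37 ± 0.11. Ndufaf5 and Ndufaf6 fell in both comparisons, Ndufaf5 by 0.53 ± 0.14 and 0.89 ± 0.13.

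**Figure D2:**
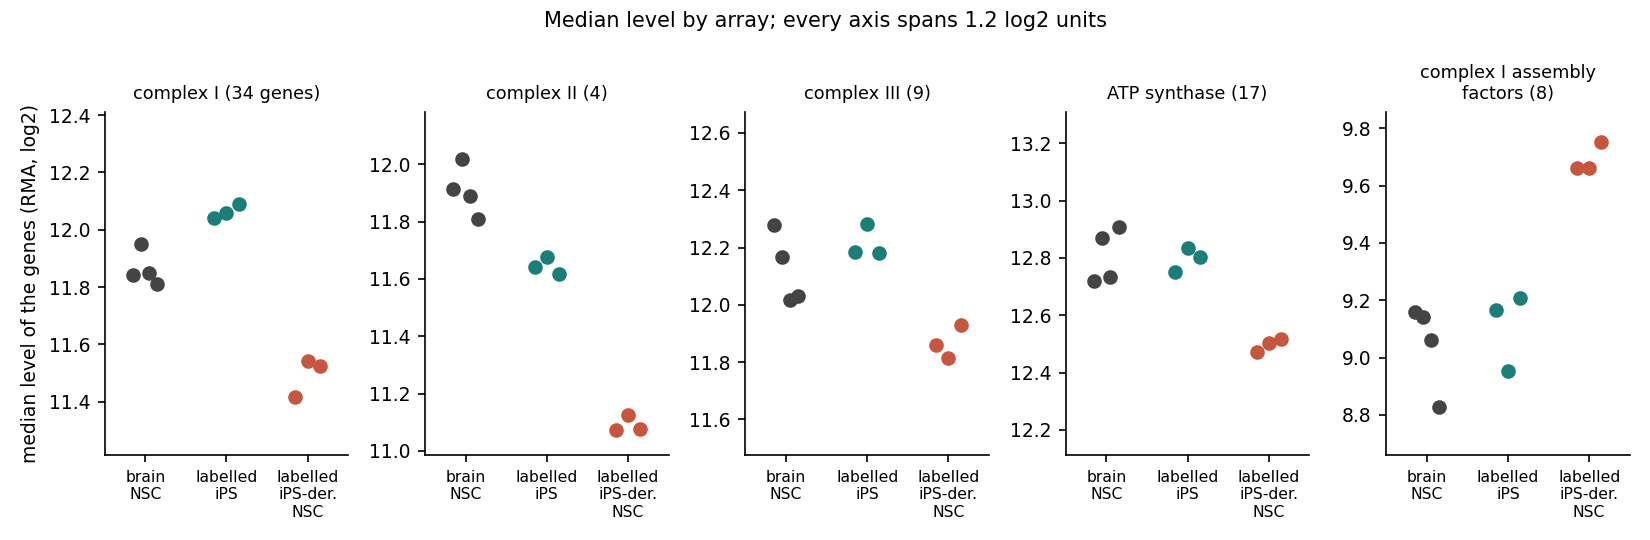
Median level of the genes of complexes I, II and III, the ATP synthase and the complex I assembly factors on every array. Each point is 1 array and every vertical axis spans 1.2 log2 units. The 3 arrays titled iPS-derived NSC lie below the other 7 for complexes I, II and III and the ATP synthase, and above them for the 8 assembly factors. Complex IV and cytochrome c are not drawn. For complex IV the medians were 10.45 to 10.51 in the arrays titled iPS-derived NSC, 9.65 to 9.96 in those titled iPS and 9.76 to 9.86 in brain NSC. For cytochrome c they were 9.41 to 9.75, 8.55 to 8.63 and 8.44 to 8.81 in the same order.

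Succinate dehydrogenase, complex II, had 2 of its 4 subunits lower and 1 higher against the arrays titled iPS, and 3 lower and 0 higher against brain NSC. For genes with a mean of at least 10, as these 4 have, the shares lower were 38.9% and 38.2%. Sdhb, its iron-sulfur subunit, had levels of 12.22, 12.18, 12.07 and 11.82 in brain NSC, 11.80, 11.86 and 11.74 in the arrays titled iPS, and 10.89, 11.09 and 11.05 in those titled iPS-derived NSC. Lowest were the arrays titled iPS-derived NSC, while the highest array titled iPS lay above the lowest of brain NSC. Sdhb fell by 0.79 ± 0.11 (adjusted p = 3.79e-05) and 1.06 ± 0.11 (adjusted p = 9.03e-07). Sdhc, a membrane anchor, fell by 0.86 ± 0.11 and 0.88 ± 0.11, although its second probe set differed by only -0.16 and -0.33. The other anchor gene, Sdhd, fell against brain NSC by 0.51 ± 0.10 but differed by -0.06 ± 0.11 (SE, adjusted p = 0.65) from the arrays titled iPS. Sdha, the flavoprotein that oxidises succinate, rose by 0.28 ± 0.10 (SE, adjusted p = 0.0225) against the arrays titled iPS and differed by -0.02 ± 0.09 (SE, adjusted p = 0.866) from brain NSC. Its second bright probe set went the other way, at -0.31 and -0.61, so the rise rests on 1 of its bright probe sets.

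In complex III, 3 of 9 subunits were lower and 1 higher against the arrays titled iPS, and 4 lower and 1 higher against brain NSC. All 9 have a mean of at least 10, and of all genes that bright 38.9% and 38.2% were lower. The counts of lower subunits are near these shares. Uqcrfs1, the Rieske iron-sulfur protein, had levels of 12.35, 12.45, 12.30 and 12.41 in brain NSC, 12.31, 12.54 and 12.46 in the arrays titled iPS, and 11.61, 11.64 and 11.65 in those titled iPS-derived NSC. Its 3 arrays titled iPS-derived NSC lay below the rest, and it fell by 0.80 ± 0.09 (adjusted p = 3.76e-06) and 0.75 ± 0.09 (adjusted p = 3.59e-06). Uqcrh, the hinge protein that contacts cytochrome c1, fell by 0.33 ± 0.12 and 0.75 ± 0.11. Uqcr11 fell in both comparisons, and Uqcrq against brain NSC alone, where its difference was -0.24. Uqcrb rose by 0.25 ± 0.09 against the arrays titled iPS, and Uqcrc2, a core protein, by 0.35 ± 0.09 against brain NSC. A second probe set of Uqcrc2, about as bright, differed by 0.0077 in that comparison and by -0.31 between the arrays titled iPS and brain NSC, so the rise rests on 1 of its probe sets. Cyc1, the gene for cytochrome c1, differed by -0.20 ± 0.11 (SE, adjusted p = 0.152) and 0.02 ± 0.11 (SE, adjusted p = 0.864).

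The largest differences of all lay among the isoforms of restricted tissue use. The 9 such genes are Cox4i2, Cox6a2, Cox6b2, Cox7a1, Cox7b2, Cox8b, Cox8c, Cyct and Ndufa4l2. Of these 8 were higher and 0 lower in the arrays titled iPS-derived NSC than in those titled iPS (34.6% and 26.6% of all genes). Against brain NSC 7 were higher and 0 lower, beside 36.9% and 25.8% of all genes. Between the arrays titled iPS and brain NSC 0 of 9 passed limma at either rule, and 0 had an unadjusted p under 0.05. In that comparison 11.1% of all genes were higher and 9.29% lower. Isoforms were already known among the rises when the set of genes was chosen, so this count is a description.

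Cox7a1 is the form of the complex IV subunit VIIa known from heart and skeletal muscle. Its levels were 4.11, 4.34, 4.17 and 4.08 in brain NSC, 4.25, 3.92 and 4.11 in the arrays titled iPS, and 8.39, 8.70 and 8.56 in those titled iPS-derived NSC. The 3 arrays titled iPS-derived NSC stood far above the other 7, which overlapped. The difference was 4.46 ± 0.12 (SE, adjusted p = 8.53e-13) against the arrays titled iPS and 4.38 ± 0.11 (SE, adjusted p = 4.6e-13) against brain NSC. The means of both other groups are dimmer than the lower quartile over the probe sets of those arrays (4.22 to 4.28), so no fold is given. In the first comparison the rise lay at the 99.2 percentile of all genes. The ubiquitous Cox7a2 had levels of 13.64, 13.58, 13.54 and 13.38 in brain NSC, 13.46, 13.39 and 13.46 in the arrays titled iPS, and 13.15, 13.22 and 13.22 in those titled iPS-derived NSC. All 3 arrays titled iPS-derived NSC lay below the other 7. The differences were -0.24 ± 0.09 (SE, adjusted p = 0.0397) and -0.34 ± 0.09 (SE, adjusted p = 0.00409). The first of these calls was lost under quantile normalization (adjusted p = 0.131 in limma), and when any array of the 6 compared, or brain NSC replicate 3, was left out (0.0527 to 0.107).

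Cox6b2 is the testis form of subunit VIb. Its levels were 5.10, 4.64, 5.05 and 4.67 in brain NSC, 4.77, 4.75 and 4.98 in the arrays titled iPS, and 9.42, 9.44 and 9.66 in those titled iPS-derived NSC. Once more the arrays titled iPS-derived NSC stood apart and the other groups overlapped. The rise was 4.67 ± 0.14 (SE, adjusted p = 2.79e-12), 25.5-fold, and 4.64 ± 0.13 (SE, adjusted p = 1.3e-12), 24.9-fold. Both other groups lie below the median over the probe sets of those arrays (5.65 to 5.69), so these folds rest on dim levels. Its widespread counterpart Cox6b1, with levels of 13.60, 13.51, 13.50 and 13.33 in brain NSC, 13.59, 13.44 and 13.52 in the arrays titled iPS, and 12.78, 12.86 and 12.79 in those titled iPS-derived NSC, moved the other way. All 3 arrays titled iPS-derived NSC lay below the rest, and Cox6b1 fell by 0.71 ± 0.10 (adjusted p = 1.8e-05) and 0.68 ± 0.09 (adjusted p = 1.35e-05).

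Cyct, the cytochrome c of testis, was dim in every group. Its levels were 3.89, 3.74, 3.98 and 3.44 in brain NSC, 3.77, 3.73 and 3.61 in the arrays titled iPS, and 5.65, 6.08 and 6.18 in those titled iPS-derived NSC. The arrays titled iPS-derived NSC were the 3 highest without overlap, with differences of 2.27 ± 0.16 (SE, adjusted p = 1.82e-08) and 2.21 ± 0.15 (SE, adjusted p = 1.03e-08). The other groups lie below the same lower quartile, so again no fold is given. The somatic Cycs differed by -0.26 ± 0.10 (SE, adjusted p = 0.0334) and -0.33 ± 0.09 (SE, adjusted p = 0.00751), and the first of these calls was lost under quantile normalization (adjusted p = 0.119 in limma) and when iPS replicate 1 or 3, or replicate 1 or 2 of those titled iPS-derived NSC, was left out (0.0872 to 0.117). Cox6b2, Cox7a1 and Cyct have 1 probe set each, so no second probe set bears on their rises.

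The other restricted isoforms differed by less than 2-fold. Cox7b2, a testis form of subunit VIIb, rose by 0.69 ± 0.11 (SE, adjusted p = 7.94e-05) and 0.62 ± 0.10 (SE, adjusted p = 9.72e-05) at levels between 3.30 and 4.29. Ndufa4l2, a paralogue of Ndufa4 known from hypoxia, rose by 0.55 ± 0.14 (SE, adjusted p = 0.00471) and 0.55 ± 0.14 (SE, adjusted p = 0.00307), while Ndufa4 fell by 0.48 ± 0.14 and 0.50 ± 0.13. Cox6a2, the muscle form of subunit VIa, rose by 0.49 ± 0.13 (SE, adjusted p = 0.00512) and 0.31 ± 0.12 (SE, adjusted p = 0.0377); its second probe set, dim on every array, differed by -0.22 and -0.14, and the call against brain NSC was lost without iPS-derived NSC replicate 2 or 3 or brain NSC replicate 2 or 4 (adjusted p of 0.0514 to 0.177).
Cox8c, a testis form of subunit VIII, rose by 0.37 ± 0.12 and 0.48 ± 0.12, the first of which was lost without replicate 1 or 2 of either group (adjusted p of 0.0542 to 0.0849). A second, dimmer Cox8c probe set differed by 0.14 and -0.09. Cox4i2, the lung form of subunit IV, rose by 0.42 ± 0.11 (SE, adjusted p = 0.00429) against the arrays titled iPS and differed by 0.25 ± 0.10 (SE, adjusted p = 0.0504) from brain NSC, where it passed without brain NSC replicate 1 or 3; under quantile normalization the first call was lost (adjusted p = 0.112 in limma). Cox8b, the muscle and brown fat form, passed in neither comparison, at 0.31 ± 0.13 (SE, adjusted p = 0.0631) and 0.12 ± 0.13 (SE, adjusted p = 0.417), although the first passed without brain NSC replicate 2 or 4 (adjusted p = 0.0443 and 0.0196 in limma).

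**Figure D3:**
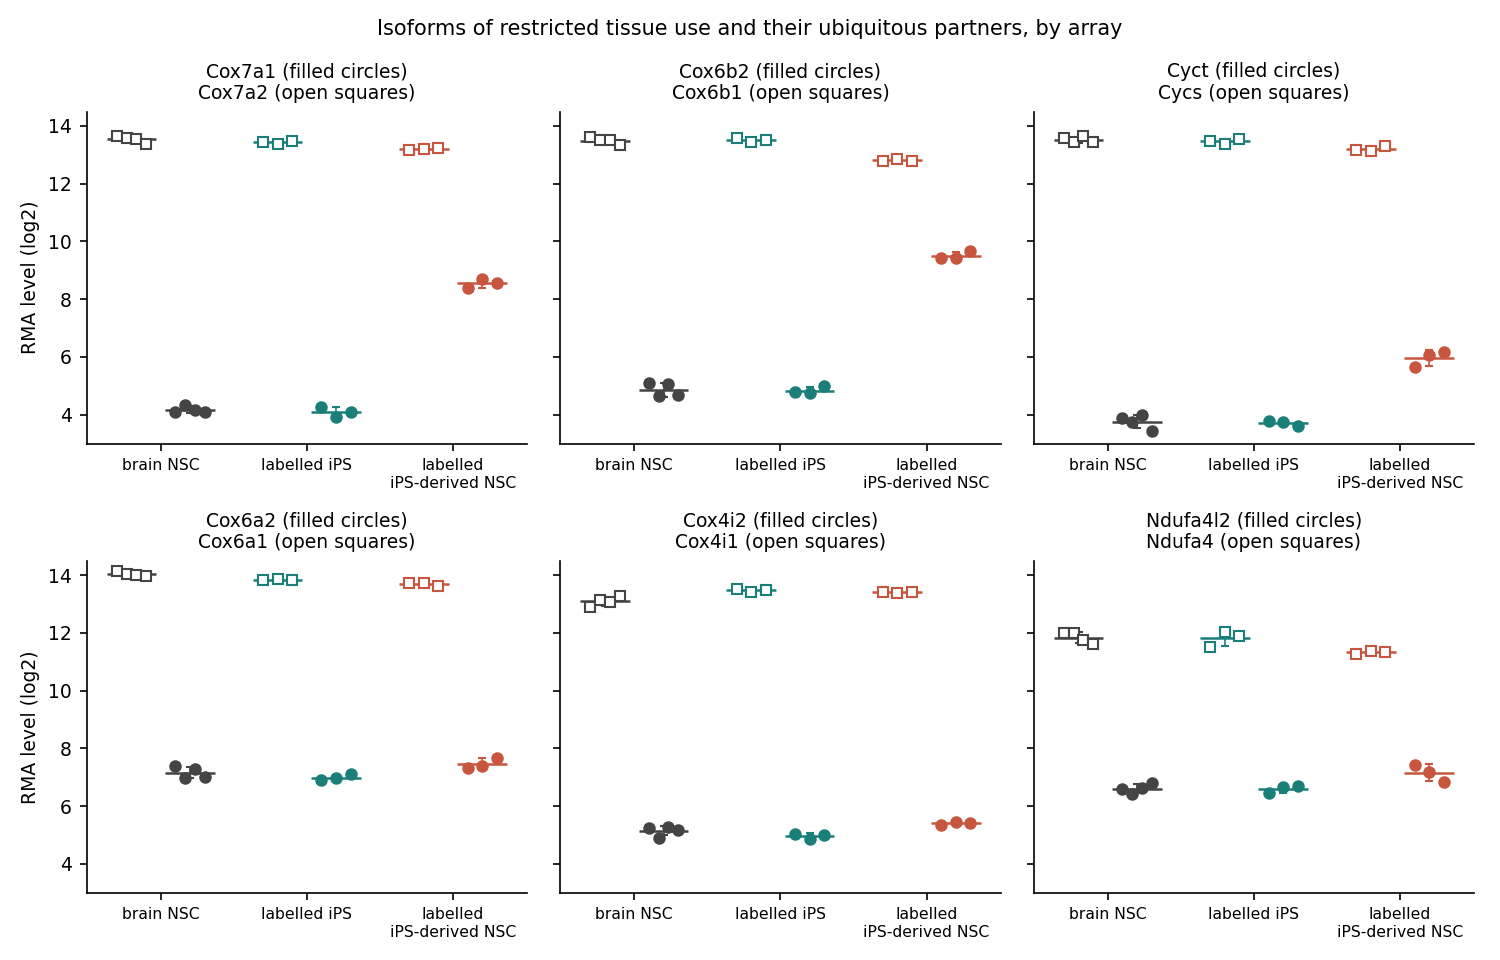
Levels of 6 restricted isoforms (filled circles) and their widespread partners (open squares) on every array, with the mean and SD of each group. Cox7a1, Cox6b2 and Cyct rise in the 3 arrays titled iPS-derived NSC while their partners stay within 1 log2 unit; distances between probe sets of different genes have no meaning on this scale.

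The change within each pair was also read as a log2 ratio on each array. Relative to Cox6b1, Cox6b2 rose by 5.38 against the arrays titled iPS and by 5.32 against brain NSC; the ratio of Cox7a1 to Cox7a2 rose by 4.70 and 4.72, and that of Cyct to Cycs by 2.53 and 2.54. In each of these the groups did not overlap, and the exact two-sided permutation p was 0.1 for 3 against 3 arrays and 0.0571 for 3 against 4, the smallest that these numbers of arrays allow. None of the 30 ratio tests can pass a threshold of 0.05 in this design, and 0 did, with the smallest adjusted p at 0.143. A ratio within an array shows unequal change of the 2 genes and not the level of either.

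Marker genes of tissues that use these isoforms were read in the same arrays. Over all genes 34.6% and 36.9% were higher, and 26.6% and 25.8% lower, in the 2 comparisons. Of 17 striated muscle markers 9 were higher and 1 lower in the arrays titled iPS-derived NSC in each comparison, led by Mylpf, a myosin light chain (6.30 ± 0.13 and 6.34 ± 0.12), and Myh6 (1.55 ± 0.15 and 1.58 ± 0.14); the mean level of the list was 5.64 to 5.71 there and 5.05 to 5.19 in the other arrays. Of 12 male germ cell markers 7 and 8 were higher and 0 lower, led by Mael and Ddx4 (5.55 ± 0.11 and 5.33 ± 0.11), with a mean level of 6.45 to 6.65 against 4.37 to 4.52. Prm1 and Tnp1, markers of late sperm development picked after their values were seen, differed by -0.10 and 0.06 from the arrays titled iPS and did not pass. They do not stand for the rest of the list. Odf1 lay at 4.79 to 5.00 in the arrays titled iPS-derived NSC, above those titled iPS (4.31 to 4.62) and brain NSC (4.37 to 4.55). Prm2 lay at 5.46 to 5.74, which overlapped 5.35 to 5.62 in the arrays titled iPS. Of 8 brown adipocyte markers 4 and 3 were higher, led by Cidea, and 0 and 1 lower. The second count of those higher is near the share of all genes. Ucp1 differed by 0.08 and -0.09 without passing.
Of 12 markers of feeder fibroblasts 7 and 8 were higher, and 2 and 3 lower. Their mean level spread from 5.66 to 6.64 over the 3 arrays titled iPS-derived NSC and was 5.48 to 5.59 elsewhere. Of 10 pericyte markers, a list that holds Cox4i2 and Ndufa4l2 themselves, 6 and 5 were higher and 1 lower. The part of any of these cell types in the isoform values was not tested.

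Stretches upstream of a RefSeq transcript start are shown for the 3 isoforms with the largest rises and for their widespread partners, because the members of a pair moved in opposite directions. Each is the 250 bases before the only start listed for the gene (RefSeq, assembly GRCm38.p6), 5′ to 3′ on the strand of the gene, with CpG dinucleotides in capitals. They lie at chr7:30183921-30184170 on the plus strand for Cox7a1, chr9:79759854-79760103 on the minus strand for Cox7a2, chr7:4753095-4753344 on the minus strand for Cox6b2, chr7:30626115-30626364 on the minus strand for Cox6b1, chr2:76360454-76360703 on the minus strand for Cyct and chr6:50566570-50566819 on the minus strand for Cycs. The listed start of Cox7a2 lies inside the span that RefSeq gives this gene (chr9:79755241-79771422), whereas the other 5 stretches end where the gene begins.
Cox7a1: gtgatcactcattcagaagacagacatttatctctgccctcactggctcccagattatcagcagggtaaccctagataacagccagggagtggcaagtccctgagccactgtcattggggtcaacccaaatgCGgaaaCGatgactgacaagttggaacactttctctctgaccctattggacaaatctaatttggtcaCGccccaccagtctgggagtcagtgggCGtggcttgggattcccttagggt
Cox7a2: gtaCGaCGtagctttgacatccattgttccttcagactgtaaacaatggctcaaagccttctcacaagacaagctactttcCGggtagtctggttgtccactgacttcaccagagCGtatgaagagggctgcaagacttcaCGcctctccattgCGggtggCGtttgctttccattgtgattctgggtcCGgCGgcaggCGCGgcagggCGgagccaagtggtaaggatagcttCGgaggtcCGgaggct
Cox6b2: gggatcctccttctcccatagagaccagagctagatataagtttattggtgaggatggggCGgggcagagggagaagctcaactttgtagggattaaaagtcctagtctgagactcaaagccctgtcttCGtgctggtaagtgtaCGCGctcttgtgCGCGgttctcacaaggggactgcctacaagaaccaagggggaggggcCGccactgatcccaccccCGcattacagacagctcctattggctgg
Cox6b1: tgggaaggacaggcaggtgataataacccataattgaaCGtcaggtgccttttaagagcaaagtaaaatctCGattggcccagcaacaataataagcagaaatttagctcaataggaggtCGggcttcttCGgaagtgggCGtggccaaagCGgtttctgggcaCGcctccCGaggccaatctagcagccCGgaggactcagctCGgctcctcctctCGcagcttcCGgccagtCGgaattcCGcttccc
Cyct: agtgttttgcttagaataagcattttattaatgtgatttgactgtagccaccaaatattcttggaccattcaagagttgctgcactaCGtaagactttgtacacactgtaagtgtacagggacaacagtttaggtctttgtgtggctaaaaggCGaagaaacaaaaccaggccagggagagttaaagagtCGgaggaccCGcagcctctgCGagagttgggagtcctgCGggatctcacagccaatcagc
Cycs: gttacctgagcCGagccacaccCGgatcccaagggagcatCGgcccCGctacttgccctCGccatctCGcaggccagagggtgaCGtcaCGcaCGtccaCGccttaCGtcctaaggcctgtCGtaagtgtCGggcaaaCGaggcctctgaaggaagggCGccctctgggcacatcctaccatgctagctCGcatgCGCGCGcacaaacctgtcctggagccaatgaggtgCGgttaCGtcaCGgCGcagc
The stretch of the restricted member holds fewer CpG dinucleotides than that of its partner for Cox6b2 and Cox6b1, with 8 against 14, and for Cyct and Cycs, with 6 against 23. The Cox7a1 stretch holds 4 and that of Cox7a2 holds 14, but these stretches are not alike in position, since the latter precedes an inner start.

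Promoter windows of 300 bases (250 before the start and 50 after it) were at hand for 76 of the 93 members. The 5 restricted isoforms among them, Cox6b2, Cox7a1, Cox7b2, Cox8b and Cyct, held 2 to 10 CpG dinucleotides with a median of 8. The other 71 members held 8 to 43 with a median of 20, and all 17491 protein-coding genes with a window had a median of 15. Cox8b, the isoform that did not pass, had the fewest, and no DNA methylation was measured.

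**Figure D4:**
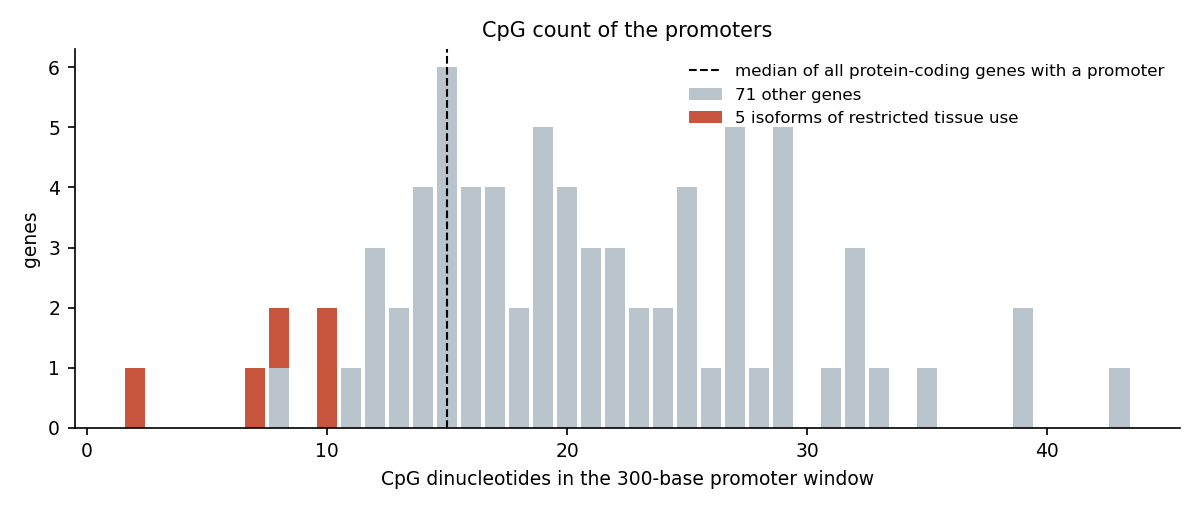
Number of genes by the count of CpG dinucleotides in their 300-base promoter window; the dashed line is the median of 15 over all protein-coding genes with a window. The 5 restricted isoforms lie between 2 and 10, and the other 71 genes between 8 and 43.

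Motifs of 3 factors known to act on respiratory genes were searched on both strands of the same windows. The YY1 core AAGATGGCG was in 9.21% of the 76 members and in 2.14% of all 17491 genes. The ETS motif of GABP, ACCGGAAGT, was in 1 member (1.32%) and in 1.59% of all genes, and its core CCGGAAG, which overlaps it, in 25% against 12.9%. The NRF1 core GCATGCGC, chosen after the promoters were seen, was in 15.8% of members, Cycs among them, and in 3.93% of all genes. That core with GC before it, the full palindrome, was in 6 members (7.89%) and 1.47% of all genes, and the palindrome with any base in place of its A in 22.4% and 7.17%. Followed by GC, the YY1 core was in 5.26% and 1.06%. None of these forms was in the windows of the 5 restricted isoforms, which says only that these letters are not there. The members are richer in CpG than all genes and every form searched contains CpG, so the shares are not set against promoters of like composition.

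The widespread subunits of complex IV were mixed. Against the arrays titled iPS, Cox6b1, Cox7a2 and Ndufa4 were lower; against brain NSC, Cox8a and Cox6a1 were lower as well. Cox8a had levels of 12.59, 12.77, 12.50 and 12.54 in brain NSC, 12.12, 12.03 and 12.03 in the arrays titled iPS, and 11.96, 11.78 and 11.91 in those titled iPS-derived NSC. Brain NSC stood above both other groups, and the arrays titled iPS lay slightly above those titled iPS-derived NSC. It fell by 0.71 ± 0.09 from brain NSC to the arrays titled iPS-derived NSC (adjusted p = 1.2e-05), and the difference from the arrays titled iPS, -0.17 ± 0.10 (SE, adjusted p = 0.142), did not pass. Cox4i1, the main form of subunit IV, was 0.31 ± 0.09 (SE, adjusted p = 0.0112) higher than in brain NSC and differed by -0.07 ± 0.10 (SE, adjusted p = 0.552) from the arrays titled iPS. Cox4i1 lies on chromosome 8, where 160 other genes with a mean of at least 10 had a median difference of 0.34 from brain NSC. Cox5a and Cox6c passed in neither comparison, at 0.06 ± 0.10 and 0.01 ± 0.10 respectively where their differences were named for being small.

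Cox7c, the gene of the small subunit VIIc that is used in all tissues, rose too. Its levels were 7.59, 7.52, 7.66 and 6.53 in brain NSC, 7.74, 7.33 and 7.61 in the arrays titled iPS, and 9.61, 9.65 and 9.55 in those titled iPS-derived NSC. The 3 arrays titled iPS-derived NSC were the highest and agreed closely, and brain NSC replicate 4 lay below all others. The rise was 2.04 ± 0.23 (SE, adjusted p = 3.91e-06) and 2.28 ± 0.22 (SE, adjusted p = 5.92e-07), and the second probe set rose by 2.44 and 2.26. The brighter of these probe sets is of a kind that can bind related transcripts.
Cox7a2l, a factor that joins complexes III and IV, fell by 0.29 ± 0.08 against the arrays titled iPS and differed by -0.17 ± 0.08 (SE, adjusted p = 0.0633) from brain NSC.

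The ATP synthase was lower in most subunits. Of 17 genes, 9 were lower and 1 higher against the arrays titled iPS, and 12 lower and 1 higher against brain NSC, with medians of -0.21 and -0.30. All 17 have a mean of at least 10. Of all genes that bright 38.9% and 38.2% were lower, and of all genes 26.6% and 25.8%. Atp5e, the epsilon subunit of the rotor stalk, had levels of 11.18, 11.51, 11.05 and 11.09 in brain NSC, 11.28, 11.30 and 11.26 in the arrays titled iPS, and 10.71, 10.53 and 10.65 in those titled iPS-derived NSC. The arrays titled iPS-derived NSC were the 3 lowest. It fell by 0.65 ± 0.12 (adjusted p = 0.000277) and 0.58 ± 0.11 (adjusted p = 0.000428). The catalytic beta subunit, Atp5b, fell by 0.38 ± 0.12 and 0.33 ± 0.11. Atp5a1, the alpha subunit, differed by 0.01 ± 0.09 (SE, adjusted p = 0.954) from the arrays titled iPS, and Atp5k by 0.02 ± 0.08 (SE, adjusted p = 0.874) from brain NSC, the smallest differences of the complex in each comparison.

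The 3 genes for subunit c, the ring that protons turn, encode the same mature protein and did not move together. Atp5g2 had levels of 12.98, 12.87, 12.90 and 12.95 in brain NSC, 12.72, 12.83 and 12.80 in the arrays titled iPS, and 12.32, 12.20 and 12.29 in those titled iPS-derived NSC. Its arrays titled iPS-derived NSC were the lowest, and it fell by 0.52 ± 0.09 (adjusted p = 0.000131) and 0.66 ± 0.08 (adjusted p = 6.91e-06). Atp5g3 fell by 0.21 ± 0.08 and 0.30 ± 0.08, the first of which was lost under quantile normalization (adjusted p = 0.181 in limma) and without any array of the 6 compared except iPS-derived NSC replicate 3, or without brain NSC replicate 1 or 3 (0.0525 to 0.114).
Atp5g1 had levels of 12.33, 12.26, 12.13 and 11.92 in brain NSC, 11.97, 11.91 and 11.98 in the arrays titled iPS, and 12.47, 12.50 and 12.52 in those titled iPS-derived NSC. It was highest in the arrays titled iPS-derived NSC, with no overlap, and rose by 0.54 ± 0.11 (SE, adjusted p = 0.000577) and 0.33 ± 0.10 (SE, adjusted p = 0.0103). With the mean of all its probe sets these differences were 0.07 and 0.01 and did not pass, so the rise rests on the brightest probe set.

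Between the arrays titled iPS and brain NSC the chain differed little. Of 93 members 11 were higher (11.8%, beside 11.1% of all genes) and 8 lower (8.60%, beside 9.29%), and the limma test found 0 at 2-fold or more, beside 1.84% of all genes; with all 10 arrays the shares are near those of all genes. The median was -0.07, and 92 members differed by less than 1.5-fold. Higher in the arrays titled iPS were 7 complex I subunits, led by Ndufa10 and followed by Ndufb10 at 0.48 ± 0.12, Ndufb7 at 0.47 ± 0.08 and Ndufab1 at 0.46 ± 0.13, together with Ndufaf2 at 0.43 ± 0.09. Ndufab1, the mitochondrial acyl carrier protein, turned to -0.025 with the mean of its probe sets and to -0.10 without probe sets that can bind related transcripts, and its call was lost without any iPS replicate and without brain NSC replicate 1, 2 or 3 (adjusted p of 0.0537 to 0.106). Ndufb10 and Cox4i1 lost theirs without iPS replicate 1 or 3 (0.0528 to 0.0752).

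Lower in the arrays titled iPS were members of several complexes. Cox8a fell by 0.54 ± 0.09 (adjusted p = 0.00134), Uqcr10 of complex III by 0.48 ± 0.15, Sdhd by 0.45 ± 0.10 and Uqcrh by 0.42 ± 0.11. The call of Uqcr10 was lost without any iPS replicate and without brain NSC replicate 1, 2 or 3 (adjusted p of 0.0564 to 0.121). Uqcrh lost its call without the same arrays except iPS replicate 2 (0.055 to 0.0797). With the mean of its probe sets Sdhd differed by -0.19 and did not pass. The dim Ndufb4 probe set fell by 0.52 ± 0.12. Atp5mpl, a small ATP synthase subunit, had levels of 12.57, 12.59, 12.36 and 11.96 in brain NSC, 11.93, 11.99 and 12.00 in the arrays titled iPS, and 11.85, 11.99 and 11.83 in those titled iPS-derived NSC. Brain NSC replicate 4 lay with the arrays titled iPS, apart from the other 3 brain arrays, and the difference of -0.40 ± 0.13 (SE, adjusted p = 0.0521) did not pass; without that array it was -0.53 with an adjusted p of 0.000625.

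One brain array weighed on this comparison. Brain NSC replicate 4 held the lowest value of its group for 47 members and the highest for 18, together 69.9% of the 93. For replicates 1, 2 and 3 that share was 54.8%, 49.5% and 25.8%, and it was not counted over all genes. Without replicate 4, 20 members were lower and 14 higher, in place of 8 and 11. The shares of all genes moved too, to 13.9% lower and 17.5% higher. Without iPS replicate 1, 2 or 3 or brain NSC replicate 1, 2 or 3, the number lower was 3 or 4. In these fits 5.58% to 6.93% of all genes were lower, in place of 9.29%. Without iPS replicate 1 or 3 the number higher was 5, beside 6.65% and 6.05% of all genes, in place of 11.1%. The labels give no batch that would set replicate 4 apart.

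Genes of chromosome 8 were shifted upwards in the arrays titled iPS against brain NSC, and 3 members lie on it. Cox4i1 was 0.38 ± 0.09 (SE, adjusted p = 0.0122) higher, Ndufb7 0.47 ± 0.08 (SE, adjusted p = 0.00132) higher, and Ndufa13 differed by 0.13 ± 0.09 (SE, adjusted p = 0.363). Their median was 0.38, and so was that of the 160 other chromosome 8 genes with a mean level of 10 or more. The other 90 members had a median of -0.09. Against brain NSC the arrays titled iPS-derived NSC were shifted too. There the same 160 genes had a median of 0.34 and the 3 members 0.13, beside -0.0056 for all 2406 bright genes. The part of this shift in the values of the 3 members was not tested.

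Genes that feed and serve the chain, taken from lists of 18, 8, 24 and 37 measured genes, were set beside it. Of 18 genes of the tricarboxylic acid cycle and its entry, 11 were lower and 2 higher in the arrays titled iPS-derived NSC than in those titled iPS, and 11 lower and 1 higher than in brain NSC. Among all genes 26.6% and 25.8% were lower in these comparisons, and 34.6% and 36.9% higher. Cs, citrate synthase, had levels of 13.67, 13.35, 13.47 and 13.40 in brain NSC, 13.26, 13.23 and 13.27 in the arrays titled iPS, and 11.43, 11.48 and 11.64 in those titled iPS-derived NSC. Those titled iPS-derived NSC were the 3 lowest. Cs fell by 1.74 ± 0.10 (adjusted p = 3.9e-09) and fell by 1.96 ± 0.10 (adjusted p = 4.57e-10). Ogdh and Dlst, parts of the oxoglutarate dehydrogenase complex, fell by 1.53 ± 0.20 against the arrays titled iPS and by 1.30 ± 0.17 against brain NSC respectively.

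The carriers that exchange ADP for ATP across the inner membrane changed in opposite directions. Slc25a31, the carrier known from testis and germ cells, had levels of 3.44, 3.50, 3.29 and 3.35 in brain NSC, 3.25, 3.34 and 3.16 in the arrays titled iPS, and 8.05, 8.48 and 7.93 in those titled iPS-derived NSC. It was high only in the arrays titled iPS-derived NSC and rose by 4.91 ± 0.13 (SE, adjusted p = 9.29e-13) and 4.76 ± 0.12 (SE, adjusted p = 5.46e-13). Slc25a4, the carrier of heart and muscle that is also common in brain, had levels of 13.34, 13.46, 13.44 and 13.25 in brain NSC, 13.45, 13.43 and 13.45 in the arrays titled iPS, and 11.74, 11.73 and 11.47 in those titled iPS-derived NSC. It fell by 1.80 ± 0.10 and 1.73 ± 0.09, with adjusted p values of 2.11e-09 and 1.42e-09. Slc25a5, the widespread form, picked after its values were seen, fell by 0.27 and 0.28.

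Regulators of mitochondrial genes mostly rose where the subunits fell. Of 24 genes for mitochondrial transcription and biogenesis, 13 were higher and 3 lower against the arrays titled iPS, and 18 higher and 3 lower against brain NSC. Beside them, 34.6% and 36.9% of all genes were higher, and 26.6% and 25.8% lower. Tfam, which packages and transcribes mitochondrial DNA, rose by 0.79 ± 0.09 and 0.88 ± 0.09, and Nrf1 by 0.89 ± 0.12 and 1.11 ± 0.11; both were picked after their values were seen. Esrrb, which is also on the pluripotency list, rose by 1.70 ± 0.10 and 1.67 ± 0.09.
Ppargc1a, the coactivator PGC-1alpha, had levels of 8.30, 8.04, 8.07 and 7.89 in brain NSC, 8.08, 7.88 and 7.91 in the arrays titled iPS, and 4.37, 4.05 and 4.04 in those titled iPS-derived NSC. It was low only in the arrays titled iPS-derived NSC and fell by 3.80 ± 0.12 and 3.92 ± 0.12, with adjusted p values of 7.97e-12 and 2.52e-12. Of 37 further assembly factors, 16 were higher and 10 lower against the arrays titled iPS, and 13 higher and 10 lower against brain NSC. Against brain NSC these shares are near those of all genes (36.9% higher and 25.8% lower). The largest difference was that of Coa7, a factor of complex IV assembly, at 1.81 ± 0.12 and 1.69 ± 0.12.

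**Figure D5:**
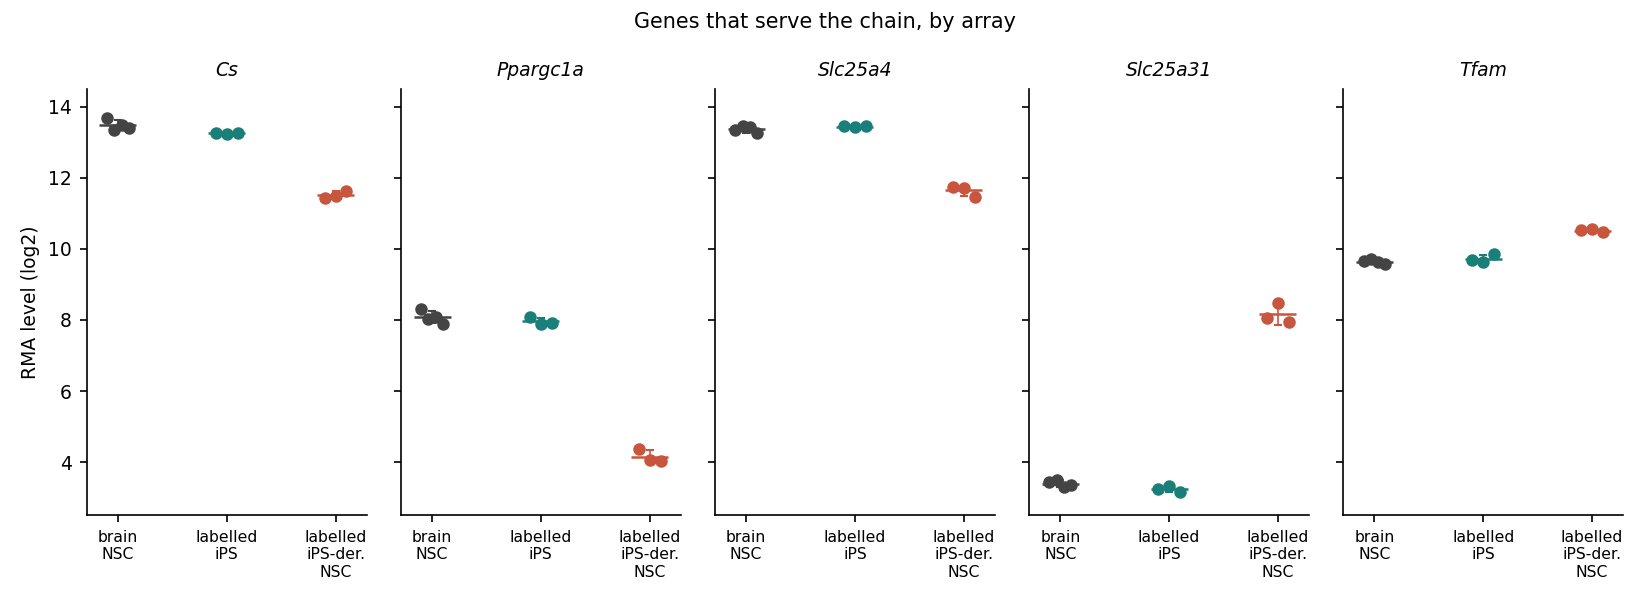
Levels of citrate synthase (Cs), the coactivator gene Ppargc1a, the carriers Slc25a4 and Slc25a31, and Tfam on every array, with the mean and SD of each group. In the 3 arrays titled iPS-derived NSC, Cs, Ppargc1a and Slc25a4 are lower and Slc25a31 and Tfam higher than in the other 7.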

How the data were processed

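The values are log2 levels of probe sets that the authors deposited as 1 table for the whole series. They were made with RMA, which corrects background, normalizes arrays and summarises probes, per the submitters' processing notes, with no version stated; RMA tends to compress the differences of dim genes. Of 45101 probe sets, 34945 had 1 gene symbol in the platform annotation, 932 several and 9160 none; control probe sets and those without a single symbol were left out, which left 18193 genes. The members have 185 probe sets, and 19 of their brightest ones end in _s_at or _x_at, which can bind related transcripts.

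Differences were fitted with limma 3.58.1 (R 4.3.3, lmFit and eBayes) over the 3 groups and 10 arrays, with 7 residual and 5.95 prior degrees of freedom, and adjusted by Benjamini-Hochberg over the 18193 genes. A gene is called higher or lower at an adjusted p under 0.05, and by a second rule where it also differs at least 2-fold. The fit was tested on simulated data. Precision is limited by the number of arrays. Ratios of isoform pairs were compared with exact permutation tests over arrays (scipy 1.17.1). Promoter windows come from RefSeq (GRCm38.p6), the window with the most CpG was counted where a gene has several, and a gene was taken as holding a motif if any of its windows did.

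The members, gene lists and tests were chosen with earlier results of these data known. Named are the isoform pairs, per comparison the 5 largest rises and falls with no overlap of arrays, the largest and smallest difference of each complex, and the 2 largest of each other list; members named beyond these were chosen after their values were seen. Alternatives were quantile normalization, the mean of all probe sets of a gene, no probe sets that can bind related transcripts, a filter on a mean of at least 6, fits of 2 groups, a trended robust fit, a replicate block, each array left out and core motifs.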

Additional observations from a re-analysis of the deposited data

Results flagged for a closer look

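In a group of 4 arrays, 1 value can stand far from the rest, and a Dixon test finds this by chance in about 1 of 20 groups. It was run on brain NSC for 51 genes named in the text, and 3 were found. Cox7c stood at 6.53 in brain NSC replicate 4, where the other 3 arrays lay between 7.52 and 7.66. Ndufs4, an accessory complex I subunit, stood at 9.90 in the same array and between 10.31 and 10.38 in the others. The dim probe set of Ndufb4 stood at 4.63 in brain NSC replicate 2 and between 4.18 and 4.21 in the others.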

How the results depend on the processing

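The counts of the comparisons that involve the arrays titled iPS-derived NSC held within 1.5 times under each alternative, with 1 exception: with the mean of all probe sets of a gene, 5 in place of 8 members were at least 2-fold different from the arrays titled iPS, where Ndufa10, Ndufa12 and Ndufs7 fell short of 2-fold, at -0.60, -0.88 and -0.91. For the arrays titled iPS against brain NSC, the number of members lower was 8, and 13 under quantile normalization, 13 with the mean of all probe sets, 13 with the trended robust fit and 5 in a fit of the 2 groups; the number higher was 11, and 6 with the mean of all probe sets. The median of this comparison was -0.07, and -0.13 without probe sets that can bind related transcripts. Ndufab1 in this comparison reversed to -0.025 and -0.10, as given above, and Ndufs4 against brain NSC reversed from -0.023 to 0.30 (adjusted p = 0.0389 in limma) with the mean of its probe sets. Causes were not tested.

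Leaving out 1 array at a time gave 3 to 20 members lower and 5 to 14 higher for the arrays titled iPS against brain NSC. The shares of all genes moved as well, from 5.58% to 13.9% lower and from 6.05% to 17.5% higher. Against the arrays titled iPS, those titled iPS-derived NSC had 34 to 46 lower, 15 to 21 higher and 7 to 9 at 2-fold; against brain NSC, 44 to 49, 16 to 20 and 7 to 9. Of 1709 recomputed values of single genes and pairs, 1618 kept their direction and side of the threshold. Part of this was fixed in advance. The ratio tests of pairs cannot pass the threshold, and leaving out an array of the group not compared cannot change a difference.

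Replicate numbers are shared between groups, but the samples do not pair by them. For each array the deviations from its group means were taken over all genes. Correlations of these deviations between same-numbered arrays ran from -0.21 to 0.13. With the replicate block, 20 members were lower in the arrays titled iPS than in brain NSC, in a fit where brain NSC replicate 4 has no partner and so does not enter; the other counts stayed within 1.5 times. The core motifs raised the share of members from 7.89% to 22.4% for NRF1 and from 1.32% to 25% for ETS. A shorter NRF1 core, GCATGCGC, chosen after the promoters were seen, gave 15.8% of members and 3.93% of all genes.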
